A study of Mus musculus with 9 samples.

Results

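The 9 genes described here handle dietary sugar in the intestinal epithelium: the transporters Slc5a1, Slc2a5, Slc2a7, Slc2a2 and Slc2a1, the enzymes Khk and Fbp1, the glucose phosphate carrier Slc37a4 and the glucose-responsive arrestin Txnip. They were taken by symbol, and all 9 were found among the 55341 genes of the count tables. RNA was sequenced from small intestinal crypts of male C57BL/6 mice between 8 and 12 weeks old, in which Pcgf6, which encodes a Polycomb protein of the variant complex PRC1.6, was deleted by either of 2 inducible Cre lines. In the AhCre line, whose Cre is driven by the Cyp1a1 promoter, beta-naphthoflavone (BNF) was given to both the wild type (AhCre WT, 2 libraries) and the knockout (AhCre KO, 2 libraries). In the Villin CreERT2 line, whose Cre is driven by the villin promoter of the intestinal epithelium, tamoxifen was given to both the wild type (Villin WT, 3 libraries) and the knockout (Villin KO, 2 libraries). Titles place collection 15 days after induction, while a second description line and the design text give 7 days, so the interval is uncertain. One description line of the Villin samples also names BNF in place of tamoxifen. The labels do not say which alleles the WT mice carried, or whether replicates came from separate mice, so p-values measure only the spread between these libraries, which may be technical.

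Absorptive enterocytes take glucose and galactose up from the lumen through the sodium-coupled cotransporter SGLT1 (Slc5a1) and fructose through the facilitative carrier GLUT5 (Slc2a5), and release sugar to the blood through GLUT2 (Slc2a2). Part of the fructose is phosphorylated inside the cell by ketohexokinase (Khk) and then cleaved, and the products can enter glycolysis or gluconeogenesis. In the crypt, where stem and progenitor cells divide, these genes are known to be low, and they rise as cells differentiate and move onto the villus. Sugar phosphate also activates the transcription factors ChREBP (Mlxipl) and MondoA (Mlxip), which bind paired E-box-like motifs with their partner MLX and switch on Txnip.

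Promoter windows were available for all 9 genes from RefSeq on GRCm38.p6, and those of 5 genes are shown: the transporters Slc5a1, Slc2a5, Slc2a2 and Slc2a7, which stand at the centre of the comparisons below, and Txnip, whose window holds matches to letters that ChREBP and MondoA are known to bind. All 5 genes lie on the plus strand, and the windows are chr5:33103969-33104218, chr4:150119094-150119282, chr3:28697653-28697902, chr4:150148637-150148886 and chr3:96557707-96557956. Each window ends just before the RefSeq transcription start, except that of Slc2a5, which stops at the earlier start in GENCODE M21. Capitals mark matches on either strand to the letters searched.

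Slc5a1: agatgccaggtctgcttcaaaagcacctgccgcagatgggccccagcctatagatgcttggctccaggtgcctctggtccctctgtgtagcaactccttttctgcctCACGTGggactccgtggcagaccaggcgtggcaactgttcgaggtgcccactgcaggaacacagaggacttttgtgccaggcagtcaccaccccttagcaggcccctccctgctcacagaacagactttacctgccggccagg

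Slc2a5: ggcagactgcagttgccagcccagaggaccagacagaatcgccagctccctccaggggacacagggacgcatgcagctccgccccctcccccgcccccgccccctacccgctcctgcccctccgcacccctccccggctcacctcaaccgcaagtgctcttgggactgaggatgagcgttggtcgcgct

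Slc2a2: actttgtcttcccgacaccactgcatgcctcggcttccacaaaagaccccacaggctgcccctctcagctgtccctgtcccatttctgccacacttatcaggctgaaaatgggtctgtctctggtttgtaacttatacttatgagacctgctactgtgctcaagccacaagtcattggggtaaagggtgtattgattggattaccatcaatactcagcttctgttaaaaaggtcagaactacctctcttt

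Slc2a7: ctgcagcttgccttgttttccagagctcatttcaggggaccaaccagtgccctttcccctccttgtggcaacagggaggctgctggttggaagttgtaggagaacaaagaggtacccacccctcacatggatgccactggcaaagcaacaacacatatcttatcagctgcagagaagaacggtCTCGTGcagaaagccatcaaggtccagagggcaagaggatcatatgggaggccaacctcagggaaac

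Txnip: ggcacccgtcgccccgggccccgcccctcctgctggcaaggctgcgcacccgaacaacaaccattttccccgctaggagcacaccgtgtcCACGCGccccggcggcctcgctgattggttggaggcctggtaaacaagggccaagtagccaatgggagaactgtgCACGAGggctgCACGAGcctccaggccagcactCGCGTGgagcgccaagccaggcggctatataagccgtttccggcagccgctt

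In the Txnip window the letters CACGNG, of which a carbohydrate response element has a pair, matched at 4 places, starting 160, 85, 74 and 52 bases before the transcription start. The matches at 85 and 74 both read CACGAG and lie 5 bases apart, so they can be read directly in the sequence above. Of 32851 promoter windows of 250 bases, 23.5% held at least 1 match to CACGNG, and 4 of the 9 genes did. The E-box with the letters CACGTG, which is a special case of that motif, was found 143 bases before the start of Slc5a1 and 71 bases before that of Khk, and in 6.02% of all windows. The single match in Slc2a7 starts 67 bases before its start. A GATA match to AGATAA lay 116 bases before the start of Fbp1 (9.99% of windows). The HNF1-type letters GTTAAT lay 60 bases before that of Khk (6.43%). The TATA letters TATAAA lay 32 bases before the most downstream of 3 RefSeq starts of Slc37a4 (12.4%). GENCODE M21 starts Khk and Slc37a4 earlier, so the matches given for them lie inside the genes as placed there. No match to the E2F letters GCGGGAA (3.82% of windows) or to the HNF4 letters CAAAGTC (3.84%) was found in the 9 genes, and none of the letters searched was found in the windows of Slc2a5, Slc2a2 or Slc2a1.

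The AhCre libraries held 9263993 to 12377921 counts and the Villin libraries 6455098 to 8339149, with counts in 33791 to 38835 and 22058 to 29750 genes. Levels are given as CPM, counts relative to the library's total after scaling by trimmed mean of M values, and levels are compared between genes only per kb of exon. Pcgf6 itself was lower in every KO library than in any WT library of its line, at 7.2 and 5.90 CPM against 14.1 and 10.1 in AhCre, and 3.07 and 2.47 against 10.8, 12.7 and 9.44 in Villin. Its decrease passed the test in Villin (log2 fold change -1.99, adjusted p = 0.0220 by edgeR), and in AhCre it did not in the fit to all 9 libraries (-0.89, adjusted p = 1.0) but did in the AhCre libraries alone (-0.88, 0.0357). The 2 Villin KO libraries stood apart from each other. Villin KO 1 had the lowest summed level of 10 proliferation genes (228 CPM, where its partner had 612 and the WT libraries 789 to 881) and the highest of 10 tuft cell genes (2808 CPM, where its partner had 385 and the WT libraries 61.8 to 92.3). Values without that library are given beside the Villin results for the 9 genes and for the gene lists.

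In wild type crypts the order of the genes was similar in both lines. Per kb, Khk was highest in AhCre WT at 266.7 ± 4.3 CPM (SD, n = 2), followed by Slc5a1 at 206.8 ± 5.2. Fbp1 (65.4 ± 1.3) and Txnip (62.7 ± 11.2) came next with overlapping libraries, and then Slc37a4 at 47.0 ± 1.5. The fructose carrier Slc2a5 (23.7 ± 1.2) and the basolateral carrier Slc2a2 (18.8 ± 2.4) were lower, and Slc2a7 (5.85 ± 0.15) and Slc2a1 (4.93 ± 0.11) were at the bottom. In Villin WT, Khk (585 ± 229 CPM per kb, n = 3) and Slc5a1 (377 ± 115) again led, with overlapping libraries. The 5 genes from Fbp1 to Slc2a2 in that group, at 82.0 ± 34.5 to 39.3 ± 2.3, overlapped each with the next in order, whereas Slc2a7 (21.4 ± 2.8) and Slc2a1 (3.90 ± 1.25) stood clear below them. In Villin KO the order changed: Slc5a1 (2039 ± 842) was above Khk (757 ± 12) and Slc2a5 (388 ± 215) came next, with no overlap between the libraries of these neighbours.

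**Figure D1:**
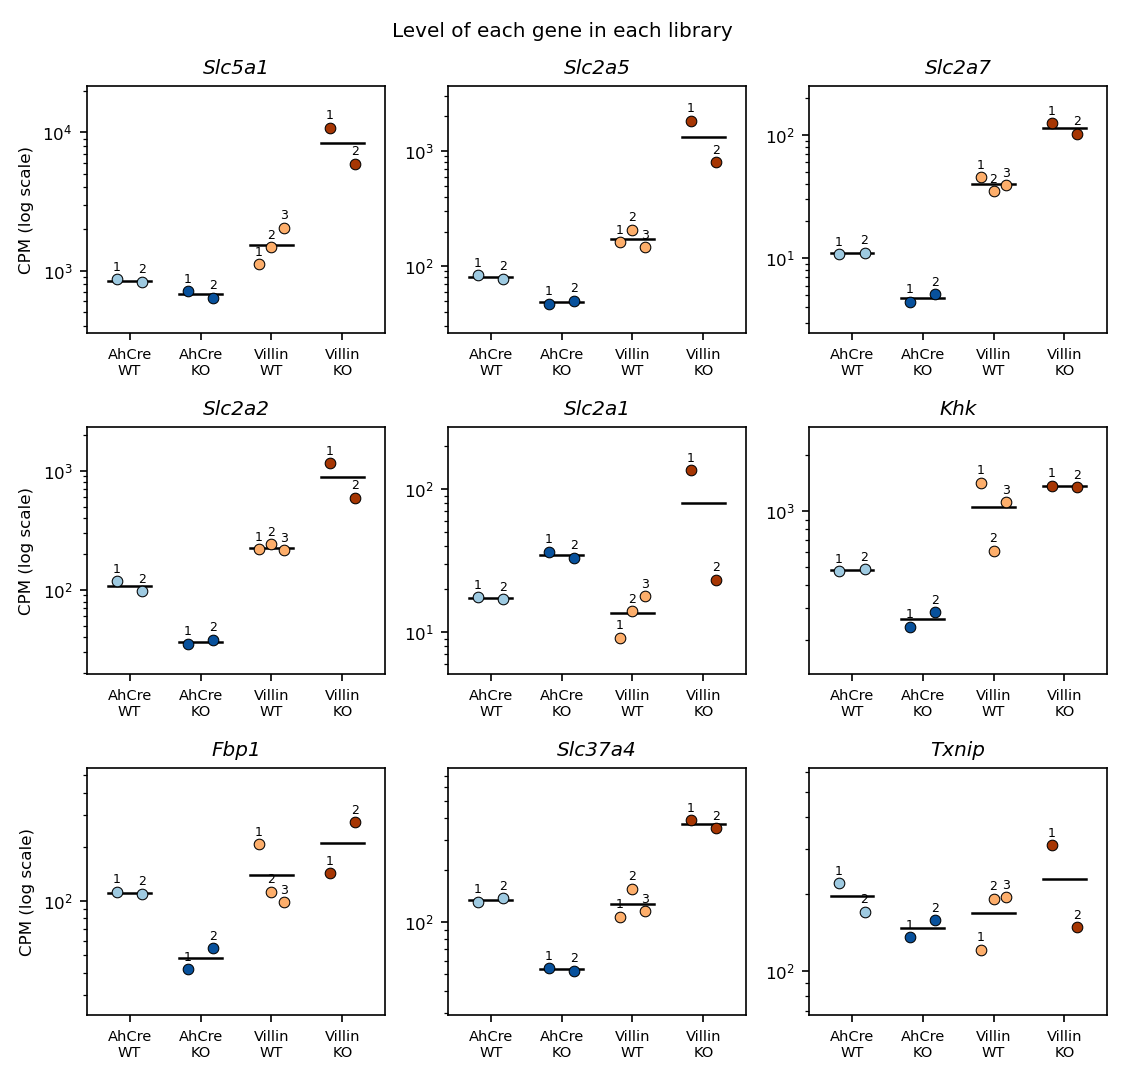
Level of the 9 genes in each library, in CPM on a log axis that differs between panels, by Cre line and genotype (points numbered by replicate, bars the group mean). In Villin, both KO points of Slc5a1, Slc2a5, Slc2a7, Slc2a2, Slc2a1 and Slc37a4 sit above all WT points, while in AhCre the KO points sit below the WT points for every gene except Slc2a1.

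The first comparison asked how the loss of Pcgf6 changed these genes in the Villin line. All 5 sugar transporters and the glucose phosphate carrier Slc37a4 rose, by 2.84-fold (Slc2a7) to 7.69-fold (Slc2a5), while Khk, Fbp1 and Txnip did not pass the test. Thus 6 of 9 genes were called higher at an adjusted p under 0.05 by edgeR's quasi-likelihood test over all 9 libraries and none lower, against 3.33% of the 16250 genes tested called higher and 2.88% lower. The median log2 fold change was 1.54 over the 9 genes and -0.18 over all genes tested. In the same 6 genes both KO libraries were above all 3 WT libraries, which was so for 14.5% of all genes tested. In bulk crypt RNA a change in the number of cells that express a gene and a change in RNA per cell cannot be told apart.

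At the luminal face, Slc2a5 had 161, 208 and 146 CPM in the Villin WT libraries and 1837 and 804 CPM after deletion. Both KO libraries were thus well above the WT range, and the first was above the second. The log2 fold change of Slc2a5 was 2.94 (SE 0.36, 95% interval 2.15 to 3.73, adjusted p = 0.00482 by edgeR). Slc5a1, the most abundant transporter of the set, rose from 1117, 1472 and 2049 CPM in WT to 10813 and 5924 in KO, a log2 fold change of 2.44 (SE 0.37, adjusted p = 0.00773 by edgeR). Its gene (chromosome 5, 33104219 to 33162870, plus strand) has the E-box letters shown above before its start. Slc2a7, a relative of Slc2a5 whose gene begins 4802 bases beyond the end of Slc2a5 on chromosome 4 (150119283 to 150144169 for Slc2a5 and 150148972 to 150168482 for Slc2a7, plus strand), was at 45.5, 35.0 and 39.3 CPM in WT and 125 and 102 in KO. Its log2 fold change was 1.5 (SE 0.27, adjusted p = 0.0138 by edgeR), the smallest of the transporters, and the 2 KO libraries were closer together than for Slc2a5.

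On the basolateral side, Slc2a2 (chromosome 3, 28697903 to 28731359, plus strand) was tightly grouped in Villin WT at 221, 241 and 217 CPM, and reached 1168 and 596 in KO. Its log2 fold change was 1.96 (SE 0.32, adjusted p = 0.00954 by edgeR). Slc2a1, the basal glucose carrier GLUT1 that most cells express (chromosome 4, 119108711 to 119137983, plus strand), had 9.17, 14.0 and 17.9 CPM in WT and 136 and 23.3 in KO. Its log2 fold change of 2.54 (SE 0.55, adjusted p = 0.0249 by edgeR) rests mostly on Villin KO 1: without that library it was 0.79 (adjusted p = 0.279). The call was lost too without Villin WT 1 (adjusted p = 0.0893) or Villin WT 2 (0.0584). Slc2a1 shares 105 exon bases with the antisense gene Gm12868, which had at most 2 counts in any library.

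Among the metabolic genes, Slc37a4, which brings glucose phosphate into the endoplasmic reticulum for release as free glucose (chromosome 9, 44396852 to 44402968, plus strand), was at 108, 156 and 116 CPM in WT and 388 and 348 in KO. The KO libraries were close together, and the log2 fold change was 1.54 (SE 0.28, adjusted p = 0.0135 by edgeR). Khk (chromosome 5, 30921431 to 30931248, plus strand) had 1426, 611 and 1119 CPM in WT and 1376 and 1345 in KO. Its WT libraries spanned more than the whole difference between the groups (log2 fold change 0.37, 95% interval -0.40 to 1.15, adjusted p = 0.536 by edgeR). Fbp1, a fructose bisphosphatase of gluconeogenesis (chromosome 13, 62864753 to 62888282, minus strand), had 207, 113 and 99.0 CPM in WT and 143 and 275 in KO, so that its groups overlapped (0.58, 95% interval -0.24 to 1.41, adjusted p = 0.349 by edgeR). Txnip, which binds thioredoxin and lowers glucose uptake (chromosome 3, 96557957 to 96561883, plus strand), had 121, 192 and 195 CPM in WT and 311 and 148 in KO. With a log2 fold change of 0.44 (95% interval -0.34 to 1.22, adjusted p = 0.464 by edgeR), it was above the WT range in Villin KO 1 only, and the sign turned without that library (-0.17). Txnip shares 606 exon bases with the antisense gene Gm15441, which had 4 to 18 counts per library against 675 to 3417 for Txnip.

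Without Villin KO 1, Slc2a5 alone of the 9 genes was called (log2 fold change 2.24, adjusted p = 0.0258 by edgeR), and over all genes the number called fell from 1009 to 73. The other log2 fold changes were then 1.96 for Slc5a1 (adjusted p = 0.0577), 1.37 for Slc2a7 (0.0712), 1.41 for Slc2a2 (0.0712) and 1.48 for Slc37a4 (0.0712), all still positive. Voom with sample weights called 4 of the 9 in Villin (Slc5a1, Slc2a5, Slc2a2 and Slc37a4) and DESeq2 called the same 6 as edgeR. In the 5 Villin libraries alone, Slc5a1, Slc2a5, Slc2a2 and Slc2a1 were called, and Slc2a7 (adjusted p = 0.0503) and Slc37a4 (0.0543) were not.

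**Figure D2:**
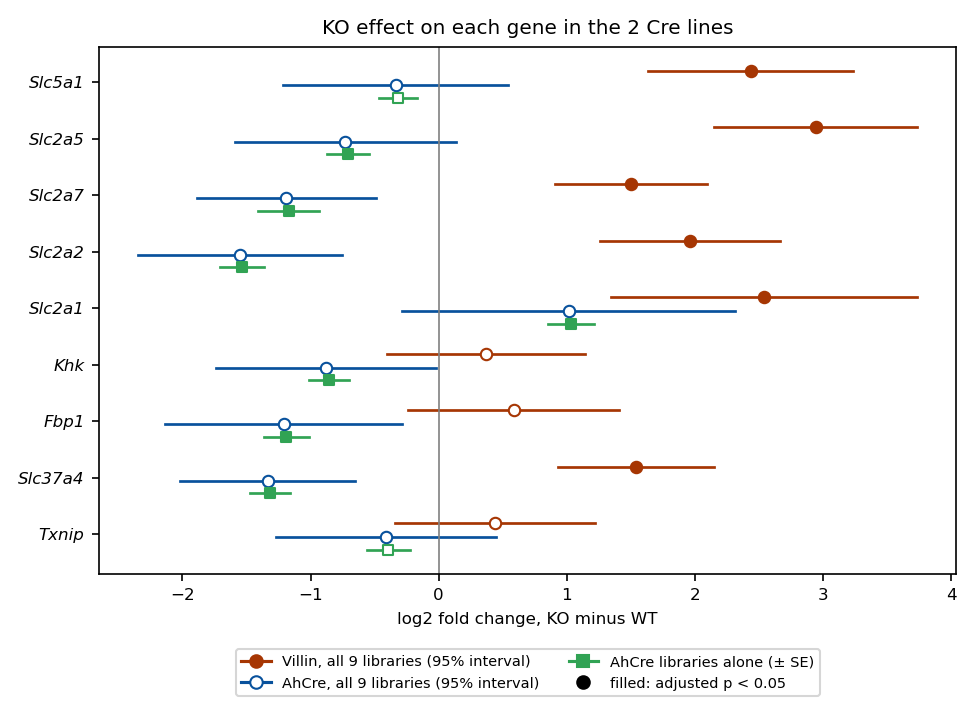
Log2 fold change of KO against WT for each gene in Villin (brown) and AhCre (blue) from the fit to all 9 libraries, with 95% intervals, and in AhCre from the AhCre libraries alone (green squares, with SE); filled symbols have an adjusted p under 0.05. Slc2a5 lies at 2.94 in Villin and at -0.73 in AhCre, and Slc2a1 is the one gene on the positive side in both lines.

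The second comparison asked the same in the AhCre line. There the levels went the other way: in 8 of 9 genes both AhCre KO libraries were below both AhCre WT libraries, and in Slc2a1 both were above. Both libraries below was the pattern of 25.1% of all genes tested. The size of the difference ranged from 1.26-fold (Slc5a1) to 2.93-fold (Slc2a2) among the 8 lower genes. With the spread shared by all 9 libraries, 0 of 9 genes were called by edgeR in either direction, against 0.00615% of all genes called higher and 0% lower. At an unadjusted p under 0.05, 5 of the 9 were lower in that fit, as were 280 of all 16250 genes. DESeq2 called 2 of them lower (Slc2a2 and Slc37a4), among 25 genes called lower in all. In a fit of the 4 AhCre libraries alone, whose replicate pairs gave chi-square values of 8.01 and 12.8 for each degree of freedom where the Villin pairs gave 50.2 to 74.7, edgeR called 6 genes lower and Slc2a1 higher, against 2.82% and 3.62% of 16257 genes tested. Voom with sample weights over all 9 libraries called the same 7 genes. The calls thus depend on whether the spread of the Villin libraries is applied to AhCre, while the fold changes of the 2 fits differed little.

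The largest decrease was that of Slc2a2, from 118 and 98.2 CPM in AhCre WT to 35.5 and 38.3 in AhCre KO. Its log2 fold change was -1.55 (SE 0.37, adjusted p = 0.375) over all libraries and -1.53 (SE 0.17, adjusted p = 1.1e-05) in the AhCre libraries alone, both by edgeR. Slc37a4 went from 131 and 137 CPM to 54.2 and 52.4, with a log2 fold change of -1.33 (adjusted p = 0.375) and -1.31 (2.4e-05) in the same 2 fits. Fbp1 was at 113 and 110 CPM in WT and 41.8 and 54.5 in KO. These 3 genes were lower by more than the spread of either group. In the AhCre libraries alone Fbp1 had a log2 fold change of -1.19 (SE 0.17, adjusted p of 0.000214 by edgeR), and with all libraries its change was -1.21 (adjusted p = 1.0). Khk was at 474 and 485 CPM in WT and 237 and 285 in KO, a log2 fold change of -0.86 in the AhCre libraries alone (adjusted p = 0.00192 by edgeR) and of -0.88 with all (adjusted p = 1.0). The apical carriers changed less uniformly. Slc2a7 was low throughout, at 10.7 and 11.1 CPM in WT and 4.45 and 5.12 in KO, from 149 to 166 and 55 to 59 counts, and had a log2 fold change of -1.17 (adjusted p = 0.00482 by edgeR in the AhCre libraries alone, 0.543 with all). Slc2a5 was at 83.5 and 77.9 CPM in WT and 47.3 and 50.1 in KO. Its decrease of 0.71 on the log2 scale was called in the AhCre libraries alone (adjusted p = 0.0125 by edgeR), but that call was lost without AhCre WT 1 (0.212) or AhCre WT 2 (0.0955), and with all libraries it was not called (1.0).

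Slc5a1 and Txnip differed least in AhCre. Slc5a1 was at 864 and 834 CPM in WT and 709 and 638 in KO (log2 fold change -0.32, adjusted p = 0.246 by edgeR in the AhCre libraries alone, 1.0 with all). Txnip was at 221 and 171 CPM in WT and 136 and 159 in KO (-0.39, adjusted p = 0.207 by edgeR in the AhCre libraries alone, 1.0 with all), and without AhCre KO 2 it passed in that fit (-0.52, adjusted p = 0.0226). Slc2a1 was the exception to the lower levels, with 17.6 and 17.0 CPM in WT and 36.5 and 33.3 in KO. Its log2 fold change was 1.03 in the AhCre libraries alone (SE 0.18, adjusted p = 0.00126 by edgeR) and 1.01 with all libraries (95% interval -0.29 to 2.32, adjusted p = 1.0).

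Whether the KO effect itself differed between the lines was tested as AhCre KO effect minus Villin KO effect. The difference was called for Slc2a5 (-3.67, SE 0.54), Slc2a2 (-3.51, SE 0.49) and Slc37a4 (-2.87, SE 0.42), each with an adjusted p of 0.0346 by edgeR, and for Slc2a7 (-2.69, SE 0.42, adjusted p = 0.0461). These 4 genes were among only 11 of 16250 (0.0677%) called with a lower effect in AhCre. For Slc5a1 the difference was -2.77 and did not pass (adjusted p = 0.0983 by edgeR), and for Fbp1 (-1.79, 0.191), Khk (-1.25, 0.283), Slc2a1 (-1.53, 0.373) and Txnip (-0.85, 0.454) it did not either. The 4 calls held under DESeq2 size factors, without a low-count filter, by DESeq2 and by voom, and all 4 were lost with the replicate number as a block (0 called, 7 lower at an unadjusted p under 0.05). With libraries left out they mostly did not hold. Without Villin WT 1 or Villin WT 2 edgeR called none of the 9 genes, with 7 lower at an unadjusted p under 0.05. Over all genes it called 10 of 16211 and 0 of 16098 there, and 1152 and 1481 were lower at the unadjusted threshold. Without Villin WT 3 only Slc2a2 of the 9 was called, among 14 genes in all. The calls were lost as well without any one of the AhCre libraries or without Villin KO 1, but not without Villin KO 2. Each of these last fits leaves a lone library in its group. Where they lost the calls, the loss was that of the whole test and not of these genes alone. The differences of the 4 genes stayed below 0 in every left-out fit, such as -4.13 to -2.96 for Slc2a5. The lines differ in inducer, promoter and library depth as well, which cannot be told apart here.

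The third comparison set the wild types of the lines side by side. Slc2a7 alone was called, 3.65-fold lower in AhCre WT (log2 fold change -1.87, SE 0.30, adjusted p = 0.00829 by edgeR), against 3.53% of all genes called lower and 4.04% higher. That call was lost without AhCre WT 1 (adjusted p = 0.115) or AhCre WT 2 (0.241), with log2 fold changes of -1.84 and -1.89. Slc5a1 (-0.86, adjusted p = 0.152), Slc2a5 (-1.09, 0.0844), Slc2a2 (-1.07, 0.0685) and Khk (-1.13, 0.0761) were also below every Villin WT library in both AhCre WT libraries but did not pass by edgeR. In all, 5 genes had this pattern, which was that of 23.8% of all genes tested. Slc2a5 and Slc2a2 passed without Villin KO 1 (adjusted p = 0.0333 and 0.0308) or Villin KO 2 (0.0354 and 0.0317), and Khk without Villin WT 2 (0.0101). Fbp1 (-0.33), Slc2a1 (0.34), Slc37a4 (0.09) and Txnip (0.21) overlapped between the wild types. Slc2a7 was at 39.9 ± 5.3 CPM (n = 3) in Villin WT and 10.9 ± 0.28 (n = 2) in AhCre WT. Its order over the 4 groups was Villin KO, Villin WT, AhCre WT and AhCre KO without overlap, an order that Slc2a5, Slc2a2 and Slc5a1 shared. This order follows from the comparisons already given, and the share of all genes that show it was not counted.

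The genes varied together to different degrees. Likeness was measured as the root mean square difference of log2 CPM over the 9 libraries after centring each gene on its mean. Among the 9, Slc2a7 and Slc2a2 were closest (0.36), followed by Slc2a5 and Slc2a2 (0.45), Khk and Fbp1 (0.47), and Slc5a1 and Slc2a5 (0.47). Of 10123 other genes with a mean of at least 5 CPM, those nearest to Slc2a5 were Npl (0.40), Fos (0.41), Nat8f2 (0.43) and Cidec (0.45). Nearest to Slc5a1 were Coq10b (0.24), Got1 (0.25) and Oasl1 (0.28). For Slc2a2 they were Fos (0.33), Slc2a7 (0.36), Slc46a1 (0.38) and Nat8f4 (0.39). Txnip, which varied least, had Pbxip1 (0.14), Hsd17b7 (0.18), Prdm9 (0.19) and Ell (0.19) nearest to it. These distances share all 9 libraries and their line difference and are a description only. The ratio of Slc2a5 to Slc2a2 per kb was 1.14 to 1.46 in the 5 WT libraries of both lines and 2.21 to 2.66 in the 4 KO libraries, without overlap, since Slc2a5 rose more in Villin KO and was lowered less in AhCre KO than Slc2a2. The ratio of Slc2a5 to Slc5a1 per kb overlapped between Villin WT (0.086 to 0.174) and Villin KO (0.164 to 0.205), and was 0.113 to 0.117 in AhCre WT and 0.0805 to 0.0948 in AhCre KO. Both ratios are a description only, and the share of gene pairs that separate WT from KO was not counted.

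The other genes of sugar handling were described with 7 lists of 64 genes in all, of which 57 were tested. In Villin KO, 18 rose, 1 fell and 38 did not pass by edgeR over all libraries, and the median log2 fold change was 1.00, against -0.18 over all genes. Of all 16250 genes, 3.33% were called higher and 2.88% lower in that fit. The number called higher was 29 by DESeq2, 4 by voom and 4 of 56 tested in the Villin libraries alone. Over all genes these numbers were 1097 and 132 of 16250, and 224 of 13673. Without Villin KO 1, Slc5a4a alone of the 57 was called (log2 fold change 1.85, adjusted p = 0.0490 by edgeR) and the median was 0.65, so that the Villin call of every other gene named from these lists below was lost without that library. In AhCre, 0 of 57 were called by edgeR with all libraries (1 higher and 6 lower at an unadjusted p under 0.05; 0 by DESeq2; 4 higher and 9 lower by voom). Of all 16250 genes, 294 were higher and 280 lower in AhCre at an unadjusted p under 0.05 by edgeR. DESeq2 called 74 of them, and voom 518 higher and 393 lower. In a fit of AhCre alone 4 rose and 11 fell, with a median of -0.23. There 3.62% of all 16257 genes rose and 2.82% fell, with a median of 0.0095. The difference of the KO effects was called for 0 of 57 by edgeR (1 higher and 26 lower at an unadjusted p under 0.05), for 15 by DESeq2 and for 9 by voom, each with the lower effect in AhCre. Over all genes edgeR called 12 (1552 higher and 1027 lower at an unadjusted p under 0.05). A lower effect in AhCre was called for 284 by DESeq2 and 127 by voom.

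The brush border disaccharidases, which split disaccharides into the sugars that the transporters carry, had log2 fold changes above 0 in 4 of 4 cases in Villin and below 0 in 4 of 4 in AhCre. In the fit to all 9 libraries edgeR called 3 of 4 higher in Villin and 0 in AhCre (2 lower at an unadjusted p under 0.05). With each line alone it called 0 of 4 in Villin (4 higher at an unadjusted p under 0.05) and 4 lower in AhCre. DESeq2 called 4 higher in Villin and 0 in AhCre, and voom 0 and 3 lower. Without Villin KO 1, 0 of 4 were called by edgeR in Villin and the median went from 1.29 to 0.77. Sis (sucrase-isomaltase) was at 1720, 1421 and 2128 CPM in Villin WT, with 5713 and 3193 in Villin KO (log2 fold change 1.34, adjusted p = 0.0420 by edgeR, and 0.88, 0.239, without Villin KO 1), and at 1299 and 1066 CPM in AhCre WT and 766 and 655 in AhCre KO (-0.72, adjusted p = 0.00882 by edgeR in the AhCre libraries alone). Treh (trehalase) changed by 1.45 in Villin and -1.02 in AhCre, and Mgam (maltase-glucoamylase) by 1.24 and -0.58, each past the threshold in the same fits. Without Villin KO 1, Treh was at 0.92 and Mgam at 0.65 in Villin. In the fructose list, Tkfc (triokinase) rose by 1.64 in Villin (adjusted p = 0.0273 by edgeR; 1.16, 0.156, without Villin KO 1) and fell by 1.04 in the AhCre libraries alone (0.000186). Sord, which makes fructose from sorbitol, rose by 1.2 in Villin (0.0429; 1.04, 0.162, without Villin KO 1) and was at 0.19 in AhCre (0.574).

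Of the other hexose transporters, 5 of 10 tested rose in Villin KO and none fell, among them Slc5a4a (1.89), a paralogue of Slc5a1, Slc5a11 (1.52), Slc2a10 (2.15) and Slc2a9 (1.2). Without Villin KO 1 these were at 1.85, 1.47, 1.03 and 0.97. Slc5a11 is known for carrying inositol and Slc2a9 for urate, so the list's name does not describe what they carry. Slc5a4a was also lower in AhCre WT than in Villin WT (-2.21, adjusted p = 0.00692 by edgeR). In gluconeogenesis, Pcx (pyruvate carboxylase, 2.42) and Pck1 (1.47, adjusted p = 0.0390 by edgeR), whose product makes phosphoenolpyruvate, rose in Villin KO. Without Villin KO 1, Pcx was at 1.70 and Pck1 at 1.55. Pck1 rose in the AhCre libraries alone as well (0.76, adjusted p = 0.00657 by edgeR). G6pc, the phosphatase that works with Slc37a4, was not called in Villin (-0.37, adjusted p = 0.545 by edgeR) and fell by 1.3 in the AhCre libraries alone (7.3e-05). Slc37a4 and its partner thus both fell in the AhCre libraries alone, and in Villin KO Slc37a4 alone was called.

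Of 19 tested glycolysis genes 6 rose in Villin KO and none fell, including both pyruvate kinase genes, Pkm (1.67) and Pklr (1.83), Hkdc1 (1.46), a hexokinase family member, and Pgam1 (1.12). Without Villin KO 1, 0 of the 19 were called by edgeR (6 higher at an unadjusted p under 0.05) and their median went from 1.14 to 0.67. Pklr fell in the AhCre libraries alone (-0.84, adjusted p = 0.00652 by edgeR), and Hk2 was called in neither line (-0.80 in Villin, adjusted p = 0.279, and 0.17 in AhCre, 0.668). Hk1, named after its values were seen, was like Slc2a1 far higher in Villin KO 1 than in Villin KO 2 and higher in both AhCre KO libraries: 4.13, 5.26 and 8.09 CPM in Villin WT, with 51.2 and 8.02 in Villin KO, and 10.7 and 9.84 in AhCre WT and 28.3 and 21.9 in AhCre KO. In the pentose phosphate list, Rpia (ribose phosphate isomerase) was the gene that fell in Villin KO (-1.41, adjusted p = 0.0420 by edgeR; -1.3, 0.150, without Villin KO 1). Of 6 glucose-sensing genes tested, edgeR called none in Villin (2 lower at an unadjusted p under 0.05, 1 lower by DESeq2, 0 by voom), and 1 lower in the AhCre libraries alone. Mlxipl was at -1.07 in Villin (adjusted p = 0.0600 by edgeR), and it fell by 0.80 in the AhCre libraries alone (0.00389). Arrdc4, an arrestin like Txnip, was not called in either line (-0.51 and -0.52). Between the wild types, Mlxipl (1.39), Mlxip (1.17) and Arrdc4 (1.8) were higher in AhCre WT (adjusted p = 0.0225, 0.0427 and 0.0150 by edgeR), while Txnip was not called there (0.21, adjusted p = 0.729).

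**Figure D3:**
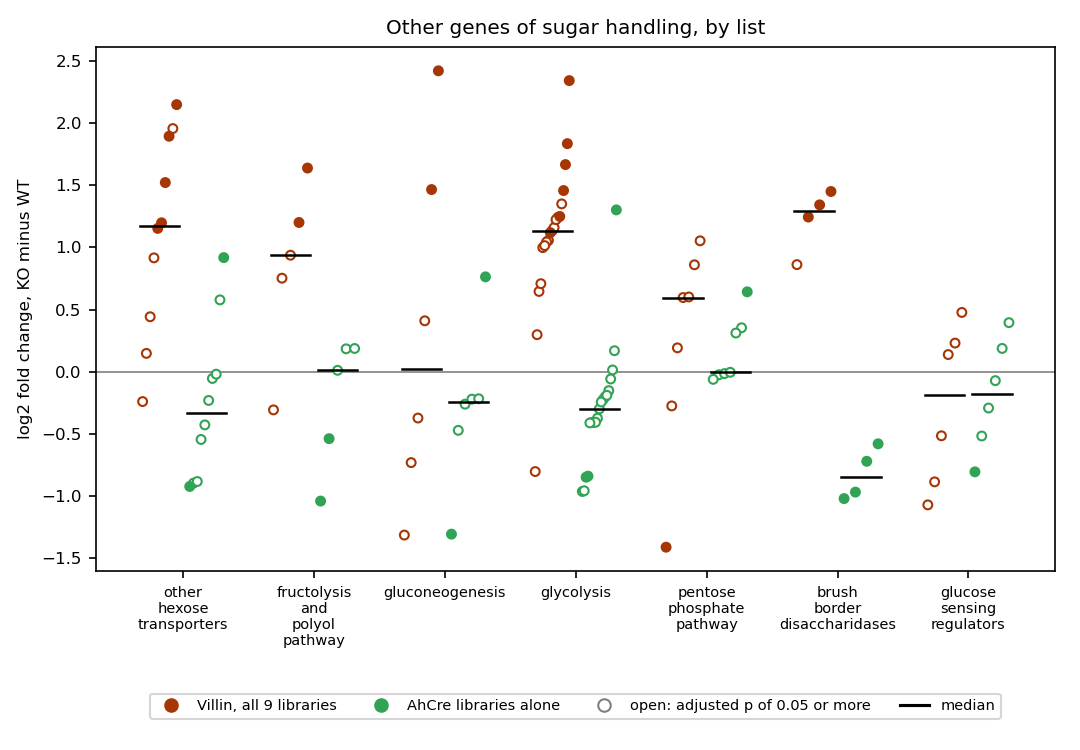
Log2 fold change of KO against WT for the 57 tested genes of 7 sugar-handling lists, in Villin from the fit to all 9 libraries (brown) and in AhCre from the AhCre libraries alone (green); filled points have an adjusted p under 0.05 and bars are medians. The disaccharidases lie above 0 in Villin and below 0 in AhCre, whereas the medians of the glucose-sensing genes are -0.19 and -0.18.

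Cell type markers were described with lists of genes as well, and some of their sums differed between KO and WT while others overlapped. For the counts below, edgeR called 3.33% of all genes higher and 2.88% lower in Villin (median log2 fold change -0.18), and voom called 132 of 16250 higher. In the AhCre libraries alone edgeR called 3.62% higher and 2.82% lower. In AhCre with all libraries 294 of 16250 genes were higher and 280 lower at an unadjusted p under 0.05 by edgeR. There DESeq2 called 49 higher and 25 lower, and voom 518 and 393. The summed level of 20 absorptive enterocyte genes, none of them a sugar gene above, was 41169, 25699 and 41228 CPM in Villin WT, with 74797 and 52162 in Villin KO, where 9 of the 20 rose and none fell (median log2 fold change 1.09). Without Villin KO 1, 0 of the 20 were called by edgeR (median 0.92). In AhCre the same sum was 14209 and 12954 CPM in WT and 12252 and 11990 in KO, with a log2 fold change below 0 in 14 of 20 genes (median -0.20, none called by edgeR with all libraries, and 1 higher and 3 lower in the AhCre libraries alone). The summed level of 10 crypt base stem cell genes was 1156 to 2675 CPM in Villin WT, 578 and 1683 in Villin KO, 2162 and 2722 in AhCre WT and 2820 and 2835 in AhCre KO. Olfm4 made up most of this sum in every library. Of the list, edgeR called Lgr5 (-1.40, adjusted p = 0.0380), Slc12a2 (-2.06, 0.0214) and Axin2 (-1.41, 0.0320) lower in Villin KO and none higher. Without Villin KO 1 these were at -1.25, -1.93 and -1.26, and in the Villin libraries alone none was called. In the AhCre libraries alone Ascl2 was called higher (0.62, adjusted p = 0.0468 by edgeR). The proliferation genes, at 957 and 1036 CPM in AhCre WT and 927 and 1055 in AhCre KO, overlapped in that line. Of them Mki67 alone was called in Villin KO, and it was lower (-2.16, adjusted p = 0.0131 by edgeR). Its log2 fold change without Villin KO 1 was -2.08. The stem cell and proliferation genes named here were picked after their values were seen. All 10 tuft cell genes rose in Villin KO, and 9 of 9 tested rose in the AhCre libraries alone. Without Villin KO 1, 4 of the 10 were called in Villin and the median log2 fold change went from 4.46 to 2.36; voom called 4 with all libraries. In AhCre with all libraries edgeR called 0 of the 10 (10 higher at an unadjusted p under 0.05), DESeq2 5 and voom 10. Their sum was 148 and 158 CPM in AhCre WT and 896 and 808 in AhCre KO. Like that sum, Slc2a1 and Hk1 were far higher in Villin KO 1 than in Villin KO 2. Slc2a10 was higher there too (17.0 and 4.94 CPM). The share of all genes with this pattern was not counted, and a link of these genes to tuft cells was not tested. Among position markers, the sum of 4 distal small intestine genes was 4202, 926 and 3553 CPM in Villin WT, with 1108 and 1947 in Villin KO, so the Villin WT libraries differed in it more than the groups did. In AhCre it was 1307.5 and 1267.8 CPM in WT and 1351.5 and 1687.1 in KO, without overlap. The sum of 4 proximal genes was 142 and 148 CPM in AhCre WT and 123 and 103 in AhCre KO, and it overlapped in Villin. Named after their values were seen, distal Slc10a2 (1.44, adjusted p = 0.000129) and proximal Pdx1 (-1.41, 0.00083) were called by edgeR in the AhCre libraries alone. No other gene of these lists was called there, and none with all libraries in AhCre. The sum of 8 Paneth cell genes was 7330 and 6497 CPM in AhCre WT and 12186 and 12973 in AhCre KO, without overlap, and 5 of the 8 rose in the AhCre libraries alone (0 called by edgeR with all libraries, none at an unadjusted p under 0.05, 0 by DESeq2 and 2 by voom). In Villin it overlapped, at 1924 to 13740 CPM in WT and 3758 and 8836 in KO. The sum of 10 stromal genes was 168 and 171 CPM in AhCre WT and 75.2 and 80.8 in AhCre KO, where 5 of 10 fell in the AhCre libraries alone (0 called by edgeR with all libraries, 1 lower at an unadjusted p under 0.05, 1 by DESeq2, 3 by voom). In the Villin line it was 191, 29.0 and 30.2 CPM for the WT libraries and 190 and 219 for the KO libraries, where 2 of 10 rose (1 without Villin KO 1). The stromal gene Col1a1, a fibroblast collagen named after its values were seen, was higher in Villin KO (3.39, adjusted p = 0.00842 by edgeR). By the same test it was lower in the AhCre libraries alone (-1.97, 1.5e-06) and in the difference of KO effects (-5.38, 0.0346), as Slc2a5 and Slc2a2 were. Col1a1 had only 3.06, 0.898 and 0.385 CPM in Villin WT, with 14.1 and 16.0 in Villin KO. The lowest of these lies below a floor of 3 counts (0.578 CPM), so the size of its change is uncertain. Lymphocyte and myeloid genes summed to 30.9 to 371 CPM in Villin WT, 305 and 904 in Villin KO, 178 and 183 in AhCre WT and 140 and 157 in AhCre KO. Over all libraries goblet cell genes ranged from 3405 to 11919 CPM and enteroendocrine genes from 259 to 1195, each with both ends in Villin WT, and proximal small intestine genes from 70.6 to 168. No listed marker was without counts in a whole group. The part of the mix of cell types, or of the stretch of intestine, in the changes of the 9 genes was not tested.

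**Figure D4:**
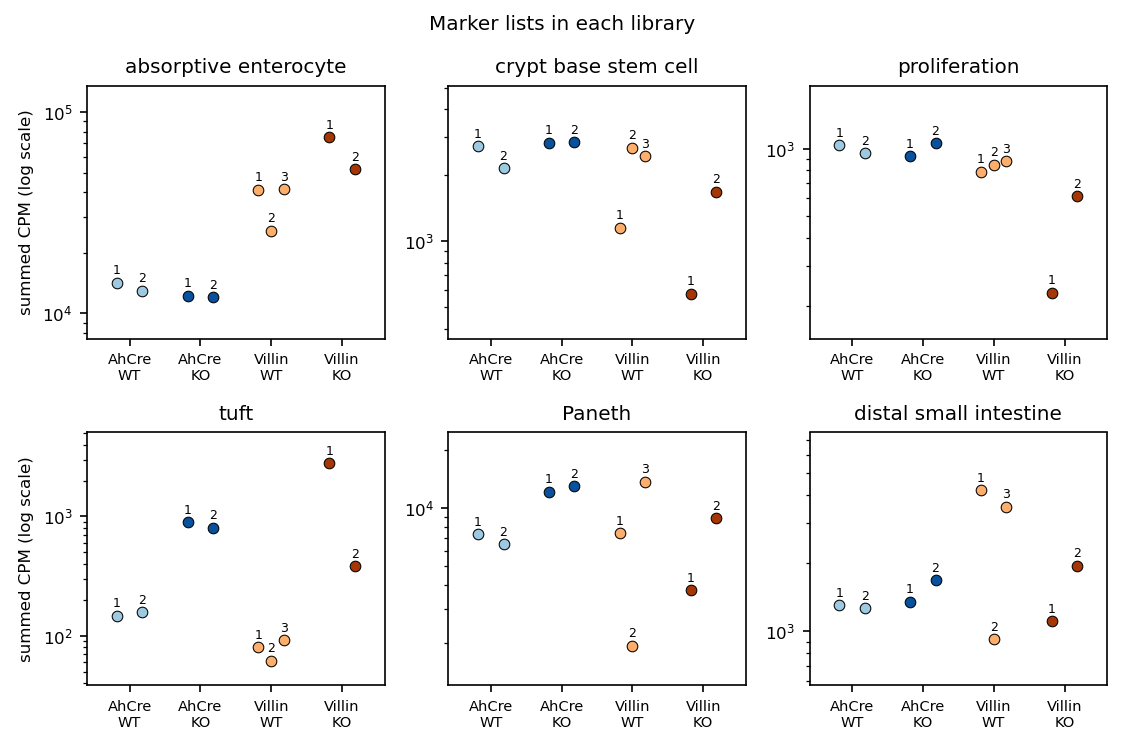
Summed CPM (log axis) of 6 marker lists in each library, by Cre line and genotype, points numbered by replicate. The enterocyte sum is 52162 and 74797 in Villin KO against 25699 to 41228 in Villin WT, and Villin KO 1 has the highest tuft cell sum and the lowest proliferation sum of all libraries.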

How the data were processed

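RNA was taken from isolated small intestinal crypts, and 2 ng of it per library went into Smart-seq2, per the labels' protocols, a method that copies polyadenylated transcripts without marking strand. For each of the 9 libraries the authors deposited read counts by gene symbol, which are whole numbers and not normalized. STAR 2.7, featureCounts, DESeq2 1.20 and the builds mm10 and GRCm38 are named in the submitters' processing notes; for the annotation and strand setting the sources used here give nothing. Every row name matched a gene name of GENCODE M21 (100.0%), from which GRCm38 coordinates and exon lengths were taken, and no row was unnamed or a total.

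The test was edgeR's quasi-likelihood F test (edgeR 4.0.16 in R 4.3.3). The filter filterByExpr, given the 4 groups, left 16250 of 55341 genes. Scaling was by trimmed mean of M values, and all 9 libraries entered 1 model of 4 group means, with 5 residual degrees of freedom. P-values were Benjamini-Hochberg adjusted over all genes tested and called under 0.05. SE and 95% intervals come from that model. All 9 genes passed the filter. CPM are counts divided by library size times scaling factor; a floor of 3 counts was 0.194 to 0.615 CPM, and precision is set by counting error too where counts are low, as for Slc2a7 in AhCre KO (55 and 59 counts) and Pcgf6 in Villin KO (15 and 16). The procedure was tested on simulated data.

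The 9 genes, the gene lists and the tests were chosen with earlier results of these data known. Named beside the 9 genes are Pcgf6, up to 4 genes per list called in any comparison of groups (smallest adjusted p), genes named whatever their values (Tkfc, Pck1, G6pc, Hk2, Hkdc1, Mlxipl, Arrdc4 and Sis), and the 4 genes nearest to Slc2a5, Slc5a1, Slc2a2 and Txnip, without Gm-numbered and Rik symbols; 2 genes that the rule names are not reported here. The marker lists are absorptive enterocyte, crypt base stem cell, proliferation, tuft, goblet, Paneth, enteroendocrine, stromal, lymphocyte and myeloid, and proximal and distal small intestine. The settings tried besides were scaling by size factors of DESeq2, testing without a low-count filter, a filter of 1 CPM or more in 4 libraries or more, the Wald test of DESeq2 1.42.0, voom with sample weights in limma 3.58.1, the libraries of a contrast alone, a replicate block and each library left out. The crossed replicate block for AhCre, and the AhCre libraries alone with each left out, were added after seeing the data. Replicate numbers do not mark a shared animal or day in the labels.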

Additional observations from a re-analysis of the deposited data

Results flagged for a closer look

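The KO effect on 4 of the 9 genes differed between the Cre lines by edgeR's test of the difference itself. The log2 fold change in AhCre minus that in Villin was -3.67 for Slc2a5, -3.51 for Slc2a2, -2.87 for Slc37a4 and -2.69 for Slc2a7. In each case all KO libraries were above the WT libraries in Villin and below them in AhCre. By edgeR, 0 of the 9 genes were called with a replicate block, where 0 of all 16250 genes were called. None of the 9 was called in most fits that left out a library, where few or no genes were called over all. With the block 7 were lower at an unadjusted p under 0.05, as were 1109 of all 16250 genes. Only Slc2a2 was called without Villin WT 3, and 6 were without Villin KO 2. The lines differ in inducer, promoter and depth, so the source of the difference cannot be told apart.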

How the results depend on the processing

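All 9 genes kept the sign of their log2 fold change in every comparison under DESeq2 size factors, no low-count filter, the 1 CPM filter, DESeq2, voom, fits of the contrast's libraries alone and the replicate block. With a library left out, the sign turned for Txnip in Villin without Villin KO 1 (-0.17; range over left-out libraries up to 0.87), for Fbp1 (0.067; down to -0.53) and Slc37a4 (-0.020; up to 0.31) between the wild types without Villin WT 1, and for Slc2a1 in the difference of KO effects without Villin KO 1 (0.24; down to -2.29). None of the reversed values was called, and the cause was not tested.

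In Villin, 1009 genes were called (541 higher, 468 lower; 704 and 388 with DESeq2 size factors, which moved the median of all genes by 0.11), against 1591 without a filter, 1749 by DESeq2, 138 by voom, 259 in the Villin libraries alone and 73 to 1949 with a library left out. Of the 9 genes 4 were called higher by voom, 4 in the Villin libraries alone and 1 to 6 with a library left out. In AhCre 1 gene was called, against 137 without a filter, 74 by DESeq2, 911 by voom, 1046 in the AhCre libraries alone and 1 to 64 with a library left out. Of the 9 genes, 1 was called higher by voom and 1 in AhCre alone, and lower were 1 without a filter, 2 by DESeq2, 6 by voom and 6 in AhCre alone. In the AhCre libraries alone with each of these left out, 485 to 2100 genes were called, and of the 9 genes 5 to 7 lower and 1 higher. Between the wild types 1231 genes were called, against 2290 without a filter, 2278 by DESeq2, 3860 by voom and 8 to 3030 with a library left out, and of the 9 genes 4 were called lower by DESeq2, 5 by voom and 0 to 3 with a library left out. For the difference of KO effects 12 genes were called, against 340 without a filter, 380 by DESeq2, 144 by voom and 0 to 415 with a library left out, and of the 9 genes 0 to 6 were called lower with a library left out.

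The labels do not tie replicate numbers to animals or days, and same-numbered libraries did not deviate together (correlation of deviations from the group means -0.11 in AhCre, 0.061 and -0.22 in Villin, -0.054 and 0.026 between the wild types). With a replicate block by edgeR, 300 genes were called in Villin, 1 in AhCre, 484 between the wild types and 0 for the difference; of the 9 genes 2 were called higher in Villin (Slc5a1 and Slc2a5; 6 at an unadjusted p under 0.05) and 0 lower for the difference (7 at an unadjusted p under 0.05). With numbers crossed in AhCre the block gave 46 genes in Villin and 0 for the difference, and of the 9 genes 0 higher in Villin (6 at an unadjusted p under 0.05) and 0 lower for the difference (6). Over all 16250 genes tested, 1752 were higher in Villin and 1109 lower for the difference at that unadjusted threshold with the block. With it crossed these were 1795 and 1177.

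Groups of 2 and 3 libraries limit every test here, and leaving one out of a group of 2 leaves a lone library that is assumed to vary like the others. Slc2a7 in AhCre KO rests on 55 and 59 counts and is the least deeply counted value among the 9 genes apart from Slc2a1 in Villin WT 1 (51 counts).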
